A study of Mus musculus with 16 samples.

Results

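The genes described here are 7 transcription factors and cofactors that act in the choice between the CD4 and the CD8 lineage of T cells, *Zbtb7b*, *Runx1*, *Runx3*, *Cbfb*, *Gata3*, *Patz1* and *Myb*. They were chosen by name, with earlier results of these data known, and they are 7 of the 24974 genes listed in both count tables of the series. RNA was measured by poly(A) RNA-seq in 16 samples of mouse thymocytes, 6 of double-positive (DP) cells (3 control, 3 cKO) and 10 of CD8 cells (5 control, 5 cKO). Control mice carried the floxed *Tox4* allele without Cre (Tox4;F/F), and cKO mice carried the same allele with Cre (Tox4;F/F;Lck+ for the DP samples, Tox4;F/F;Lck-cre for the CD8 samples). Cre is driven by the proximal *Lck* promoter and removes exons 4 to 6 of *Tox4*, a gene for a chromatin protein, from the DN3 stage of thymocytes on. The floxed allele was made in C57BL/6 mice, and the animals were gender-matched littermates of 6 to 8 weeks. The CD8 cells were sorted as TCRβ+CD8+ thymocytes, and the study defines CD8 single-positive cells as lacking CD4. The DP cells were sorted as well, DP standing for CD4+CD8+ cells in the study. The fragments counted on genes numbered 16524506 to 18484568 in DP control, 14583336 to 25981683 in DP cKO, 9420085 to 13530783 in CD8 control and 8514135 to 11828492 in CD8 cKO samples. Each of the 7 genes had a count in all 16 samples, the lowest being 12 fragments of *Zbtb7b* and the highest 35802 of *Myb*.

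DP thymocytes carry both CD4 and CD8 and are the last common stage before cells become CD4 helper or CD8 cytotoxic T cells. *Zbtb7b* encodes ThPOK, the factor that commits cells to the CD4 lineage, and *Runx3* encodes a factor of the Runx family that silences *Cd4* and commits cells to the CD8 lineage, and each of the pair represses the other. Runx1 holds *Cd4* down in earlier cells, Cbfb is the partner subunit that both Runx proteins need, and Gata3, Patz1 and Myb act upstream, on *Zbtb7b* or on the CD8 genes.

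*Tox4* itself was read first, as a check of the genotypes. Its level, in CPM (counts scaled to library size, by TMM over all 16 libraries together), was 149, 165 and 175 in DP control samples 1 to 3 and 128, 135 and 129 in DP cKO samples 1 to 3. All 3 DP cKO samples were below all 3 controls, with a log2 fold change of -0.32 (adjusted p = 0.381, edgeR). In CD8 cells *Tox4* was at 199, 191, 204, 207 and 183 CPM in control samples 1 to 5 and at 173, 189, 178, 237 and 168 CPM in cKO samples 1 to 5. The library labelled cKO 4 was above all 5 controls, 3 of the others were below all controls and cKO 2 lay among them (log2 fold change -0.06, edgeR adjusted p = 0.979). The counts cover the whole gene, of which the deletion removes only part, so they do not measure how complete the deletion was. The same library held 251 counts of *Xist*, the RNA of the inactive X chromosome, beside 850 counts of the Y-linked *Ddx3y*, while the other CD8 libraries with many *Ddx3y* counts held 2 or 3 counts of *Xist*. For *Tox4* and *Cd8b1* (1002 CPM) this library was above all controls, with most or all other cKO samples below them. For *Sox13* (8.82 CPM) and *Ets1* (2218 CPM) it was above all controls, with the other cKO samples. For *Tle1* (11.2 CPM) and *Foxp3* (3.06 CPM) it was below all controls, with most or all other cKO samples. These genes were picked by their values. Whether this library was rightly labelled, mislabelled or mixed was not tested. It was kept under its label, so the CD8 cKO means and fold changes include it, and values without it are given with the results. These sex-linked genes were looked at after the values of the 7 factors were seen. CD8 samples numbered 1, 2 and 5 were high in *Xist* and those numbered 3 and 4 high in *Ddx3y* in both genotypes, and all 6 DP samples were high in *Ddx3y*.

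The labelled cell types were checked with marker genes. The lists of DP and of mature single-positive markers each hold 1 more gene that is not used here and is in no sum. The DP markers *Rag1*, *Rag2*, *Ptcra* and *Arpp21*, with *Rag1* the most abundant, added up to 7138 to 10123 CPM in the 6 DP samples. In CD8 samples they added up to 156, 193, 43.1, 27.8 and 34.5 CPM in controls 1 to 5 and to 149.9, 174, 50.2, 61.9 and 52.1 CPM in cKO samples 1 to 5. CD8 samples numbered 1 and 2 thus held more of these RNAs than those numbered 3 to 5 in both genotypes, and all CD8 samples held far less than the DP samples. The markers of mature single-positive cells *Ccr7*, *S1pr1*, *Klf2* and *Il7r* added up to 26.9 to 65.2 CPM in DP samples. They added up to 1799, 1357, 2687, 3006 and 2316.5 CPM in CD8 controls 1 to 5 and to 1396, 1370.5, 2789, 2773.5 and 1978 CPM in CD8 cKO samples 1 to 5, with *S1pr1* the most abundant over all CD8 samples. The samples numbered 1 and 2 were the lowest in both genotypes. *Cd4* RNA was at 1556 to 1910 CPM in DP samples, at 61.6, 66.4, 6.02, 3.67 and 10.5 CPM in CD8 controls 1 to 5, and at 68.4, 77.7, 6.38, 5.88 and 7.28 CPM in CD8 cKO samples 1 to 5. CD8 control 1 also stood apart in the number of genes with a count, 17741 against 13708 to 14194 in the other CD8 controls.

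Among the 7 factors the order of RNA levels differed between the cell types. Levels of different genes are compared per length, as TPM, which divides counts by exonic length before scaling. In DP control cells *Myb* was the most abundant, at 939 ± 95.5 TPM (SD, n = 3), followed by *Patz1* at 230 ± 15.1, *Gata3* at 179.6 ± 30.8, *Cbfb* at 177 ± 37.0, *Runx1* at 90.5 ± 2.48, *Runx3* at 26.03 ± 6.01 and *Zbtb7b* at 9.13 ± 2.62 TPM. *Gata3* and *Cbfb* did not differ beyond their spread, and the other neighbours in the order were more than their SDs apart. In CD8 control cells *Runx3* came first, at 467 ± 27.7 TPM (SD, n = 5), followed by *Myb* at 279 ± 98.7, *Cbfb* at 168 ± 27.5, *Gata3* at 152 ± 69.5, *Patz1* at 114 ± 17.3, *Runx1* at 65.2 ± 11.95 and *Zbtb7b* at 1.91 ± 0.860 TPM. From *Myb* to *Patz1* no neighbours in this order differed beyond their spread. The order in cKO cells was the same as in control cells of the same type, from *Myb* at 1113 ± 129 down to *Zbtb7b* at 4.17 ± 0.0507 TPM in DP (SD, n = 3) and from *Runx3* at 476.5 ± 25.7 down to *Zbtb7b* at 1.77 ± 0.841 TPM in CD8 (SD, n = 5). *Zbtb7b* was thus the least abundant of the 7 in all 4 groups, and *Runx3* stood sixth in DP and at the top in CD8.

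**Figure D1:**
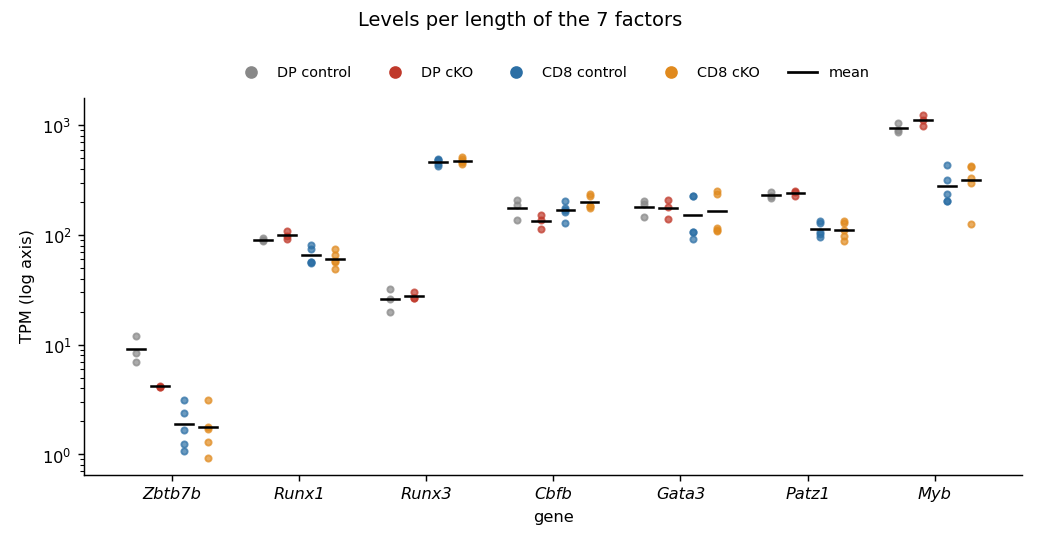
RNA level per length of the 7 factors on a log axis in TPM, 1 point per sample (n = 3 in each DP group, n = 5 in each CD8 group), with a line at each group's mean. *Runx3* lies at 26.03 TPM in DP control and 467 TPM in CD8 control samples, and *Zbtb7b* is the lowest of the 7 in every group.

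Control CD8 against control DP cells shows how these factors differ between the stages in mice without Cre. The CD8 factor *Runx3* was higher in CD8 cells, the CD4 factor *Zbtb7b* was lower, and *Runx1*, *Patz1* and *Myb* were also lower. *Cbfb* and *Gata3* were not called. With edgeR 5 of the 7 factors were called at an adjusted p under 0.05, in a comparison that called 60.3% of the 11758 genes tested. For *Runx3* alone, the higher one, the share of all genes called higher was 29.9%, and for the 4 lower ones the share called lower was 30.4%. The DP and CD8 samples come from separate tables, so cell type and table cannot be told apart. *Xist* was at 5087, 5142 and 3382 CPM in CD8 controls 1, 2 and 5 and at 0.626, 0.21 and 0.516 CPM in DP controls 1 to 3. CD8 cKO samples 1, 2 and 5 were high in it as well. Sex-linked RNA was thus not balanced between the stages, and its part was not tested.

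*Runx3* RNA was at 34.6, 45.9 and 28.8 CPM in DP controls 1 to 3 and at 655, 602, 620.1, 581.5 and 584 CPM in CD8 controls 1 to 5. Every CD8 sample was far above every DP sample, and the 5 CD8 values lay close together. The mean was 16.7 times as high in CD8 cells, a log2 fold change of 4.09 ± 0.16 (SE; 95% interval 3.73 to 4.45, edgeR adjusted p = 8.44e-09), and its p ranked 24 of 11758. *Zbtb7b* went the other way, from 18.5, 11.5 and 14.1 CPM in DP controls to 4.84, 2.43, 1.84, 1.70 and 3.66 CPM in CD8 controls. No CD8 sample reached the lowest DP sample, and CD8 controls 1 and 5 held the most among the CD8 samples. Its mean was 5.08 times as high in DP cells (log2 fold change -2.31 ± 0.32, SE; 95% interval -3.00 to -1.63, edgeR adjusted p = 6.04e-05). In bulk samples fewer cells of a type and less RNA per cell cannot be told apart. Set against each other within a sample, the ratio of *Runx3* to *Zbtb7b* in TPM was 2.17, 4.64 and 2.37 in DP controls and 157, 288, 391, 398 and 185 in CD8 controls.

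*Runx1*, the Runx gene of earlier cells, was at 209.7, 239 and 231 CPM in DP controls and at 194, 166, 130.3, 134 and 134 CPM in CD8 controls. The groups did not overlap, with CD8 control 1 close to the lowest DP sample, and the difference was the smallest of those called (log2 fold change -0.55 ± 0.14, SE, edgeR adjusted p = 0.00424). Its size was under the fold change of 1.5 that the study asks for. *Runx1* exceeded *Runx3* 3.39, 2.91 and 4.49 times in TPM in DP controls 1 to 3, and *Runx3* exceeded *Runx1* 6.03 to 8.50 times in the 5 CD8 controls. Their shared partner *Cbfb* was at 195, 189 and 138 CPM in DP controls and at 122, 182, 157, 153 and 155 CPM in CD8 controls. The ranges overlapped and the interval of the log2 fold change ran from -0.46 to 0.16 (value -0.15, edgeR adjusted p = 0.387). The Runx genes thus changed places in level between the cell types while *Cbfb* was not called.

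Because *Runx3* and *Runx1* moved in opposite directions, the bases around their start sites are shown, as RefSeq gives them for GRCm38.p6, together with those of *Zbtb7b* that hold a Runx motif. All 7 factors matched the promoter table, with 11 windows of equal length, and the start sites of *Runx3* lie 31900 bases apart and those of *Runx1* 128745 bases apart. The counts cover whole genes and do not separate transcripts from either start site. Motifs were searched on both strands, TGTGGT for Runx, AGATAA for GATA and CANNTG for the E-box. The Runx motif was found in 3 of the 11 windows and in 16.8% of all 32851 promoters of the table, the GATA motif in 0 of 11 and 11.2%, and the E-box in 9 of 11 and 72.3%. Capitals mark the Runx motif, which reads ACCACA where it lies on the opposite strand. Each window is printed 5′ to 3′ on the strand of its gene, for *Runx3* chr4:135120395-135120694 and chr4:135152295-135152594 on the plus strand, for *Runx1* chr16:92826025-92826324 and for *Zbtb7b* chr3:89387622-89387921, both on the minus strand.
Runx3 first window: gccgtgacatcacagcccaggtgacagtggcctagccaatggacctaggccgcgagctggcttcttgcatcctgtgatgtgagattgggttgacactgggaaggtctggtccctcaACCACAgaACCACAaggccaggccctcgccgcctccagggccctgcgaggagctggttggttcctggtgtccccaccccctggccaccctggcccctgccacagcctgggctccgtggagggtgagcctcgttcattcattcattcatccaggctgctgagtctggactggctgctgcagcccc
Runx3 second window: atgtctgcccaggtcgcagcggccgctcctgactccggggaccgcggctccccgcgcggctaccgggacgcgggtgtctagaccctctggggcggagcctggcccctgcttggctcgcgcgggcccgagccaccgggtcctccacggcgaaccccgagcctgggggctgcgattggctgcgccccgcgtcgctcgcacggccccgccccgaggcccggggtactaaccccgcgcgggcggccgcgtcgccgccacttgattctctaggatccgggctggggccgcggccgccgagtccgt
Runx1 first window: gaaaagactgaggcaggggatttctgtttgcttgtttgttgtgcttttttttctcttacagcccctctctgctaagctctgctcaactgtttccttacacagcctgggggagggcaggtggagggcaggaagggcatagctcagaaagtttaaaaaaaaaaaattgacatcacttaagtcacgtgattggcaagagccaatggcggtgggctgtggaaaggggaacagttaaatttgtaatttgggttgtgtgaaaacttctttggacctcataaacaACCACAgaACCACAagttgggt
Zbtb7b second window: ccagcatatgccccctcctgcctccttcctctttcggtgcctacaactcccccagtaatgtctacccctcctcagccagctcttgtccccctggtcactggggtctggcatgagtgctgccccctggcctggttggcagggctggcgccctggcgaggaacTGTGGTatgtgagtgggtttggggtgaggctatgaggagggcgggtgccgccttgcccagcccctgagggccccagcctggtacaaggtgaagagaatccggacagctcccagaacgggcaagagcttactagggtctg
The first windows of *Runx3* and *Runx1* share a run of 18 bases, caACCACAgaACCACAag, with a pair of Runx motifs 8 bases apart. In *Runx3* the pair begins 134 and 126 bases before the start site and in *Runx1* it begins 28 and 36 bases after it. The second windows of *Runx3* and of *Runx1*, the latter not printed, hold no Runx motif, and the motif in *Zbtb7b* begins 89 bases before the start site. These letters describe the windows, and no binding was measured here.

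*Gata3*, which acts upstream of *Zbtb7b* and is needed for CD4 cells, was at 149, 213 and 227 CPM in DP controls and at 235, 222, 105, 96.7 and 108 CPM in CD8 controls. The CD8 samples formed a high pair, numbers 1 and 2, at the level of DP cells, and 3 samples below all DP samples. Over all samples the log2 fold change was -0.33 ± 0.30 (SE, edgeR adjusted p = 0.361), and without CD8 samples 1 and 2 it was -0.89. These 2 samples were left out after their high values of this gene were seen, so that value is a description and its p is not used. *Patz1*, a zinc finger repressor that holds back *Zbtb7b* and CD8 genes in thymocytes, was at 254, 262 and 299 CPM in DP controls and at 145, 142, 114, 116 and 107 CPM in CD8 controls. All CD8 samples lay well below all DP samples (log2 fold change -1.10 ± 0.12, SE, edgeR adjusted p = 1.14e-05). *Myb*, a factor of DP cells that also favours CD4 cells, was at 1271, 1136 and 1186 CPM in DP controls and at 526.3, 367, 238, 250.9 and 282 CPM in CD8 controls. No CD8 sample reached 0.5 of the lowest DP sample, and number 1 was the highest CD8 sample (log2 fold change -1.82 ± 0.22, SE, edgeR adjusted p = 2.62e-05). For *Zbtb7b*, *Runx1*, *Runx3*, *Patz1* and *Myb* the exact 2-sided permutation test of the difference in mean CPM gave p = 0.0357, the smallest that 5 samples against 3 allow.

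**Figure D2:**
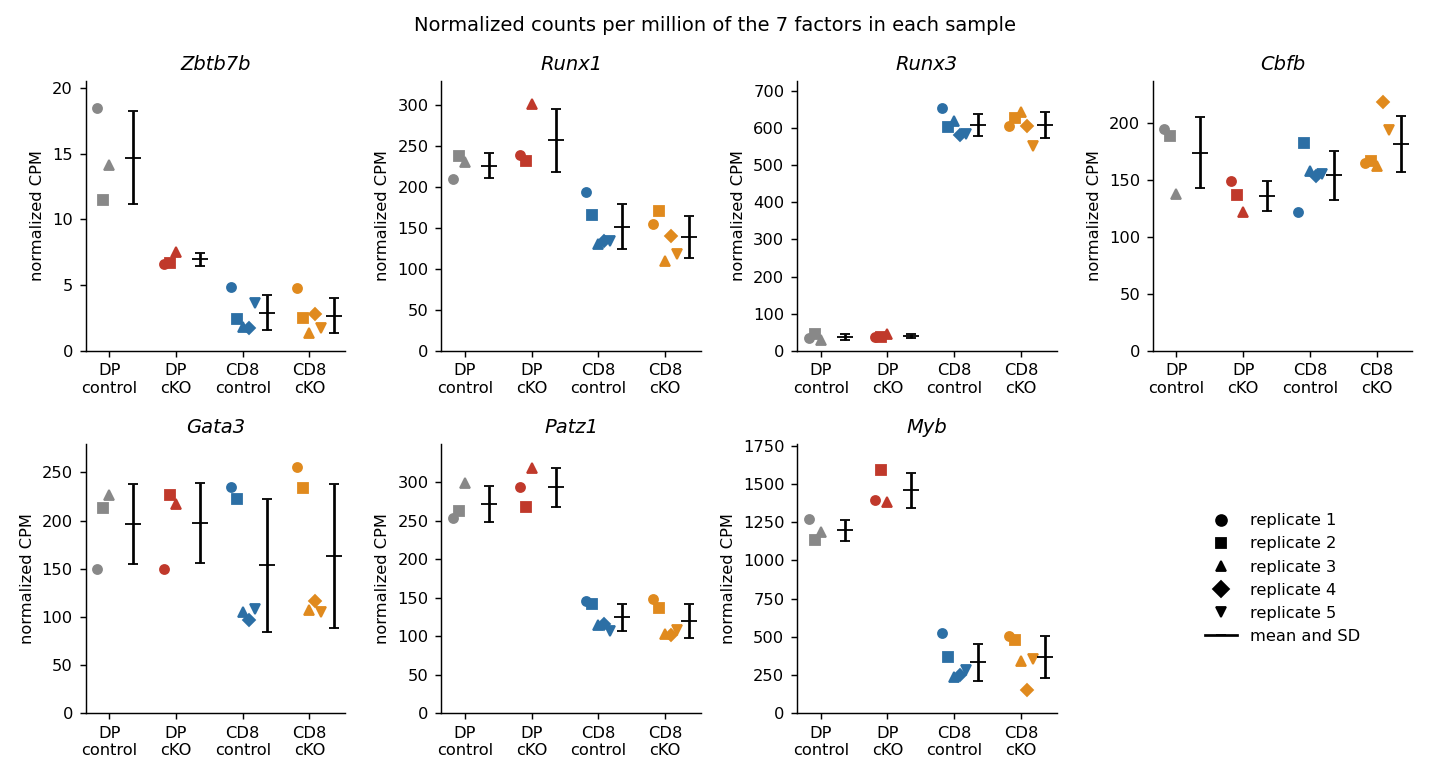
Normalized CPM of the 7 factors in each sample, 1 panel per gene, marker shapes giving the replicate number, with the mean and SD of each group (n = 3 in DP groups, n = 5 in CD8 groups). *Runx3* is at 28.8 to 46.2 CPM in the DP samples and at 552 to 655 CPM in the CD8 samples, and *Gata3* splits the CD8 samples of both genotypes into numbers 1 and 2 above 220 CPM and numbers 3 to 5 below 120 CPM.

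The same stages were compared in mice with Cre, in samples that the comparison of controls does not use. *Runx3* was again higher in CD8 cells and *Zbtb7b*, *Runx1*, *Patz1* and *Myb* lower, with *Cbfb* now among the genes called higher. With edgeR 6 of the 7 factors were called, 2 higher and 4 lower, where 63.0% of the 11740 genes tested were called, 29.6% higher and 33.5% lower. *Runx3* was at 36.4, 37.2 and 46.2 CPM in DP cKO samples 1 to 3 and at 606, 629, 644, 607 and 552 CPM in CD8 cKO samples 1 to 5 (log2 fold change 3.92 ± 0.14, SE, edgeR adjusted p = 7.37e-10). *Zbtb7b* was at 6.60, 6.71 and 7.54 CPM in DP cKO and at 4.80, 2.51, 1.37, 2.82 and 1.76 CPM in CD8 cKO samples (log2 fold change -1.37 ± 0.33, SE, edgeR adjusted p = 0.00298). All CD8 samples of both genes lay on the same side of all DP samples, and the distance for *Zbtb7b* was smaller than in control mice, from lower DP values. The log2 fold changes of *Runx1*, *Patz1* and *Myb* were -0.89, -1.29 and -1.99, with no overlap between the groups. *Cbfb* was at 149, 136 and 122 CPM in DP cKO and at 164.5, 166, 162.5, 218.5 and 194 CPM in CD8 cKO samples (log2 fold change 0.41 ± 0.13, SE, edgeR adjusted p = 0.0181). Its groups did not overlap, but without DP cKO 3 the adjusted p was 0.0642 and with the replicate number as a block 0.110 (edgeR; 0.00507 to 0.116 over 20 alternatives). Deviations of DP cKO and CD8 cKO samples of equal number correlated at 0.033, -0.063 and -0.083, so this block rests on numbers alone. Without the library labelled CD8 cKO 4 the same number of factors was called, 6, beside 62.6% of all genes, with *Cbfb* at 0.35 (edgeR adjusted p = 0.0212). *Gata3* was at 149.7, 226 and 217 CPM in DP cKO and at 255, 234, 107, 117 and 105 CPM in CD8 cKO samples, the same split by number as in controls (log2 fold change -0.27, edgeR adjusted p = 0.436). Without CD8 samples 1 and 2, left out after their high values of this gene were seen, its log2 fold change was -0.84, again a description whose p is not used.

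Loss of *Tox4* in DP cells was read from cKO against control samples of that stage. *Zbtb7b* had the log2 fold change largest in size of the 7, with all cKO samples at about the same low level. It and *Myb* were the factors whose genotypes did not overlap. For both the exact 2-sided permutation test gave p = 0.1, the smallest that 3 samples against 3 allow. How many of all genes separate the DP genotypes so was not counted, here or for the genes named below. With edgeR 0 of the 7 factors were called, in a comparison that called 0.145% of the 11748 genes tested, 10 higher and 7 lower in cKO cells. At an unadjusted p under 0.05 there were 1079 genes, with *Zbtb7b*, *Cbfb* and *Myb* among them, and DESeq2 called 180 genes (1.07% of 16897) with 1 of the factors, *Zbtb7b*. The count of 17 genes depended on each library, being 8, 0 and 4 without DP control 1, 2 and 3 and 7, 1 and 1 without DP cKO 1, 2 and 3. The labels do not state that each sample is a separate animal, so the p-values here measure only the spread between these samples.

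*Zbtb7b* was at 18.5, 11.5 and 14.1 CPM in DP controls 1 to 3 and at 6.60, 6.71 and 7.54 CPM in DP cKO samples 1 to 3. The cKO samples lay within 1 CPM of each other and below the lowest control, while the controls spread more widely. The mean was 14.7 ± 3.55 CPM in controls and 6.95 ± 0.512 CPM in cKO samples (SD, n = 3), a log2 fold change of -1.08 ± 0.21 (SE; 95% interval -1.55 to -0.61). The edgeR p was 0.000571 before and 0.122 after adjustment, ranking 55 of 11748. The gene was called by DESeq2 (adjusted p = 0.00124), with the replicate number as a block (0.0319) and without the filter on low counts (0.0330), and its adjusted p ran from 0.00124 to 0.393 over 16 alternatives. Leaving out 1 library gave log2 fold changes of -1.23 to -0.88. The exact 2-sided permutation test gave p = 0.1, the smallest that 3 samples against 3 allow. The ratio of *Runx3* to *Zbtb7b* in TPM was 6.40, 6.43 and 7.11 in DP cKO samples, above the 2.17, 4.64 and 2.37 of the controls.

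Several RNAs of more mature or single-positive thymocytes were also lower in DP cKO samples, and their part in the result for *Zbtb7b* was not tested. *Ccr7*, a chemokine receptor of cells that leave the cortex, was at 30.9, 20.2 and 16.8 CPM in DP controls and at 11.2, 11.1 and 10.01 CPM in DP cKO samples. *S1pr1*, the receptor that guides exit from the thymus, was at 5.64, 2.41 and 2.52 CPM in controls and at 1.55, 0.977 and 1.55 CPM in cKO samples. *Il7r*, the IL-7 receptor chain that is shut off in DP cells, was at 22.2, 16.8 and 11.7 CPM in controls and at 11.6, 8.08 and 5.84 CPM in cKO samples. DP control 1 was the highest sample for all of these as for *Zbtb7b*, and no cKO sample reached the lowest control. *Klf2*, a factor of mature T cells, did not separate the groups, at 6.55, 8.54 and 9.63 CPM in controls and 3.69, 7.23 and 9.51 CPM in cKO samples. None of these 4 genes was called by edgeR, beside 0.145% of all genes tested. The log2 fold changes were -1.07 for *Ccr7* (edgeR adjusted p = 0.133), -1.36 for *S1pr1* (0.330) and -0.99 for *Il7r* (0.328). The 4 together, with *Ccr7* the most abundant, added up to 65.2, 48.0 and 40.7 CPM in controls and to 28.0, 27.4 and 26.9 CPM in cKO samples, a sum over part of the list.

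Of the 3 markers of CD4 single-positive cells, which include *Zbtb7b*, *Cd4* was at 1819, 1556 and 1865 CPM in DP controls and 1845, 1643 and 1909.5 CPM in DP cKO samples, and *Cd40lg* at 4.67, 4.66 and 2.18 CPM and at 2.28, 1.37 and 1.35 CPM. *Cd4*, which DP cells also express, overlapped between the genotypes and made up most of the list's sum of 1842, 1572 and 1882 CPM in controls and 1854, 1651 and 1918 CPM in cKO samples. *Cd40lg* overlapped through DP control 3 and cKO 1 (log2 fold change -1.20, edgeR adjusted p = 0.346). The 4 myeloid markers added up to 17.1, 40.2 and 19.3 CPM in DP controls and to 16.8, 16.2 and 22.0 CPM in DP cKO samples. Within this list *Lyz2* was at 6.15, 21.4 and 8.02 CPM in controls and 3.46, 3.71 and 4.21 CPM in cKO samples, and *Cd68* at 7.86, 8.64 and 7.11 CPM in controls and 11.5, 9.90 and 15.2 CPM in cKO samples. *Csf1r* was at 1.77, 4.51 and 1.95 CPM in controls and 1.23, 0.977 and 1.24 CPM in cKO samples. *Lyz2* and *Csf1r* were thus lower and *Cd68* higher in all cKO samples, while *C1qa* overlapped. With edgeR 0 of the 4 were called, beside 0.145% of all genes tested. Their log2 fold changes were -1.65 for *Lyz2*, -1.25 for *Csf1r*, -1.43 for *C1qa* and 0.63 for *Cd68*, a median of -1.34 beside -0.00 over all genes. The sum was highest in DP control 2 and *Zbtb7b* in DP control 1. With 3 controls such an order was not tested for any of the lists. The 4 B cell markers, with *Cd79a* the most abundant, added up to 4.38, 11.6 and 5.33 CPM in controls and 2.69, 2.87 and 4.60 CPM in cKO samples. Of these only *Pax5*, at 0.271 to 0.546 CPM in cKO samples, was below all controls (log2 fold change -1.69). The 3 markers of double-negative cells, with *Cd44* the most abundant over the controls, added up to 43.7, 35.9 and 29.0 CPM in controls and 21.9, 25.5 and 30.2 CPM in cKO samples. Of these *Il2ra* was at 21.3, 13.5 and 12.5 CPM in controls and 9.52, 8.67 and 10.6 CPM in cKO samples (log2 fold change -0.71, edgeR adjusted p = 0.343). *Kit* was at 5.47, 3.14 and 3.04 CPM in controls and 2.32, 1.17 and 2.40 CPM in cKO samples (95% interval of the log2 fold change -1.81 to -0.12, edgeR adjusted p = 0.453). Both were below all controls in all cKO samples and highest in DP control 1, as was *Zbtb7b*, and *Cd44* overlapped. The 3 NK markers added up to 2.56, 1.41 and 0.802 CPM in controls and at most 0.652 CPM in cKO samples, with *Klrb1c* the most abundant in DP controls 1 and 2, and the 3 of thymic epithelium, with *Krt5* the most abundant over the controls, to 0.287 to 0.629 CPM and at most 0.116 CPM. Both sums were lower in all cKO samples, from levels at which none of these 6 genes was tested. *Foxn1*, a defining marker of thymic epithelium, was at 0 in all 6 DP samples, no other gene of these lists was, and their part in the result for *Zbtb7b* was not tested.

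**Figure D3:**
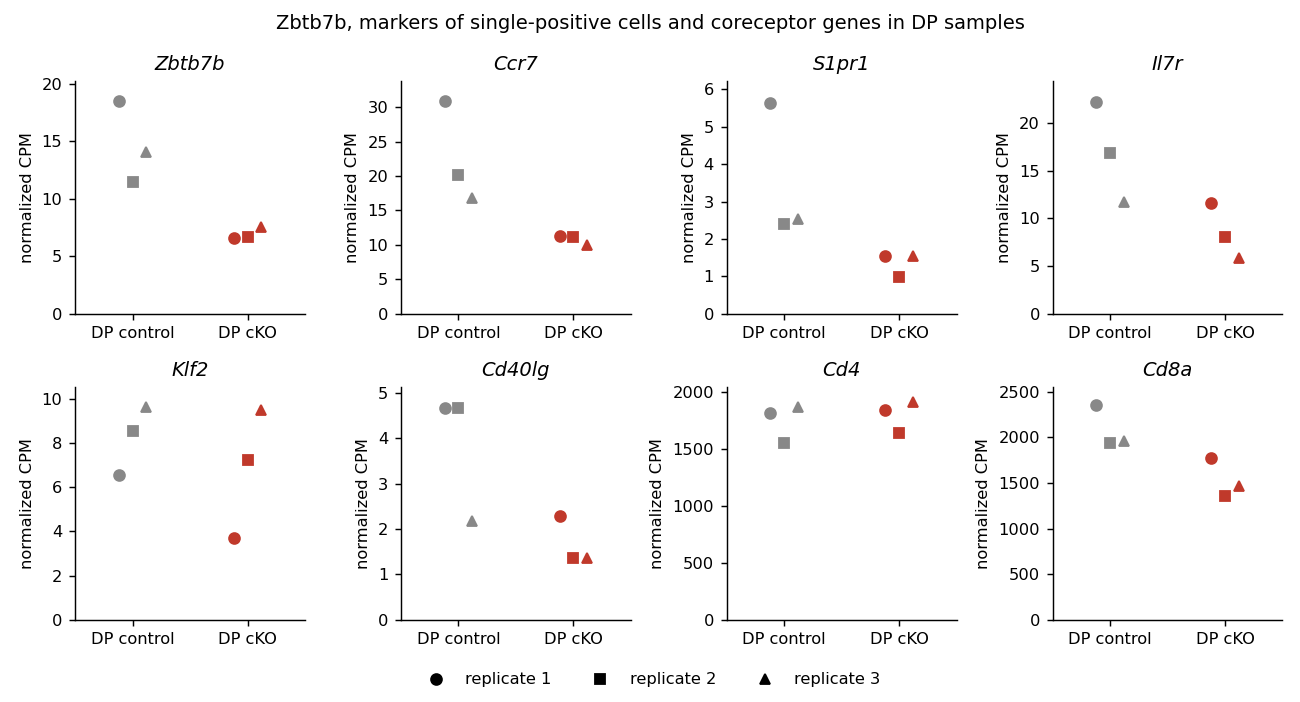
Normalized CPM of *Zbtb7b*, 4 markers of mature single-positive cells, *Cd40lg*, *Cd4* and *Cd8a* in the 3 control and 3 cKO samples of DP cells, 1 point per sample. *Zbtb7b*, *Ccr7*, *S1pr1*, *Il7r* and *Cd8a* do not overlap between the genotypes, and *Klf2*, *Cd40lg* and *Cd4* do.

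The other factors in DP cells had smaller log2 fold changes. *Myb* was at 1271, 1136 and 1186 CPM in controls and at 1397, 1591 and 1384 CPM in cKO samples, with all cKO samples above all controls (log2 fold change 0.28 ± 0.11, SE, edgeR adjusted p = 0.462). *Cbfb* was at 195, 189 and 138 CPM in controls and at 149, 136 and 122 CPM in cKO samples, with DP control 3 among the cKO values (log2 fold change -0.36 ± 0.16, SE, edgeR adjusted p = 0.541). *Runx1* was at 239, 231.5 and 301 CPM in cKO samples, where number 3 was the highest DP sample, and *Patz1* at 293, 267 and 319 CPM, both overlapping the controls (log2 fold changes 0.18 and 0.11). *Runx3* and *Gata3* had log2 fold changes of 0.13 (95% interval -0.29 to 0.55) and 0.01 (-0.45 to 0.46). *Gata3* varied by number more than by genotype, with number 1 at 149 CPM in controls and 149.7 CPM in cKO samples and all others above 210 CPM. For *Runx3*, whose log2 fold change without DP control 3 was -0.02, and for *Gata3*, which gave -0.16 without DP control 1, -0.12 without DP cKO 2 and -0.05 without DP cKO 3, the direction rested on single libraries.

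Loss of *Tox4* in CD8 cells was read in the same way from 5 samples of each genotype. No factor separated the genotypes, and samples with the same number were more alike than samples of the same genotype for *Gata3*. With edgeR 0 of the 7 factors were called, where 0.107% of the 11227 genes tested were called, 10 higher and 2 lower, and none of the 7 was among the 629 genes with an unadjusted p under 0.05. DESeq2 called 66 genes (0.332% of 19874) and 0 of the 7 factors. Deviations from the group means correlated between samples of the same number (r across genes 0.115 to 0.371 over the 5 pairs, genes not being independent), and with the number as a block edgeR called 44 genes (0.392%) and 0 of the 7. The count of 12 genes was 4 without CD8 control 3, 6 without CD8 control 5, 7 without CD8 cKO 3 and 21 without the library labelled cKO 4. Without that library 0 of the 7 factors were called, beside 0.184% of all genes, with log2 fold changes of -0.13 for *Zbtb7b*, -0.13 for *Runx1*, -0.002 for *Runx3*, 0.16 for *Cbfb*, 0.19 for *Gata3*, -0.002 for *Patz1* and 0.34 for *Myb*.

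*Zbtb7b* was at 4.84, 2.43, 1.84, 1.70 and 3.66 CPM in CD8 controls 1 to 5 and at 4.80, 2.51, 1.37, 2.82 and 1.76 CPM in CD8 cKO samples 1 to 5. Number 1 was the highest in both genotypes and the ranges overlapped nearly whole, with a 95% interval of the log2 fold change from -0.93 to 0.72 (value -0.11). This interval reaches close to the -1.08 of DP cells. Its sign rested on single libraries, the value being 0.15 without CD8 control 1, 0.05 without CD8 cKO 3 and 0.01 without CD8 cKO 5. *Runx3*, at 581.5 to 655 CPM in controls and 552 to 644 CPM in cKO samples, had the narrowest interval of the 7, from -0.17 to 0.17 (log2 fold change -0.001, SE 0.08). *Cbfb* was at 122, 182, 157, 153 and 155 CPM in controls and at 164.5, 166, 162.5, 218.5 and 194 CPM in cKO samples. The library labelled cKO 4 was the highest and CD8 control 1 the lowest, and 2 cKO samples were above all controls (log2 fold change 0.24 ± 0.11, SE; 95% interval -0.01 to 0.48, edgeR adjusted p = 0.925). Without 1 library it ran from 0.16 to 0.31.

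*Runx1* was at 194, 166, 130.3, 134 and 134 CPM in CD8 controls and at 155, 171, 109.7, 140.5 and 118 CPM in CD8 cKO samples, *Patz1* at 107 to 145 and 101 to 149 CPM. *Myb* was at 526.3, 367, 238, 250.9 and 282 CPM in controls and at 506, 482, 343, 156 and 357 CPM in cKO samples. In all 3 genes numbers 1 and 2 were above numbers 3 to 5 in both genotypes, and *Myb* was lowest of all CD8 samples in the library labelled cKO 4. Their log2 fold changes were -0.13, -0.06 and 0.15, and that of *Gata3* was 0.09 (95% interval -0.58 to 0.76). Without the samples numbered 1 and 2, left out after their values were seen, the values were -0.11 for *Runx1*, -0.10 for *Patz1*, 0.16 for *Myb* and 0.09 for *Gata3*, and 0 factors were called. The sign for *Gata3* turned without CD8 control 3, 4 or 5 or without CD8 cKO 1 or 2, with values down to -0.12, and that for *Patz1* without CD8 control 1 (0.01). *Runx3* turned to values of 0.002 to 0.034 without CD8 control 1 or 3 or CD8 cKO 1 or 5.

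The split by number also held for marker genes. In numbers 1 and 2 of both genotypes *Rag1* was at 78.8 to 122 CPM and in the other 6 CD8 samples at 12.1 to 34.7 CPM. *Ccr7* was at 378, 309, 697, 794 and 608 CPM in CD8 controls and 327, 328, 667, 679 and 485 CPM in CD8 cKO samples, and *Klf2* at 341, 263, 799.9, 949 and 718 CPM and 248, 267, 772.5, 893 and 462 CPM. The samples numbered 1 and 2 thus held more *Gata3*, *Myb*, *Runx1*, *Patz1*, *Cd4* and *Rag1* RNA and less *Ccr7* and *Klf2* RNA than those numbered 3 to 5. *Runx3* did not follow this split, at 602 to 655 CPM in numbers 1 and 2 and 552 to 644 CPM in the others. These groups of samples were seen in the data and are not groups of the study, so no test of the split was made.

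**Figure D4:**
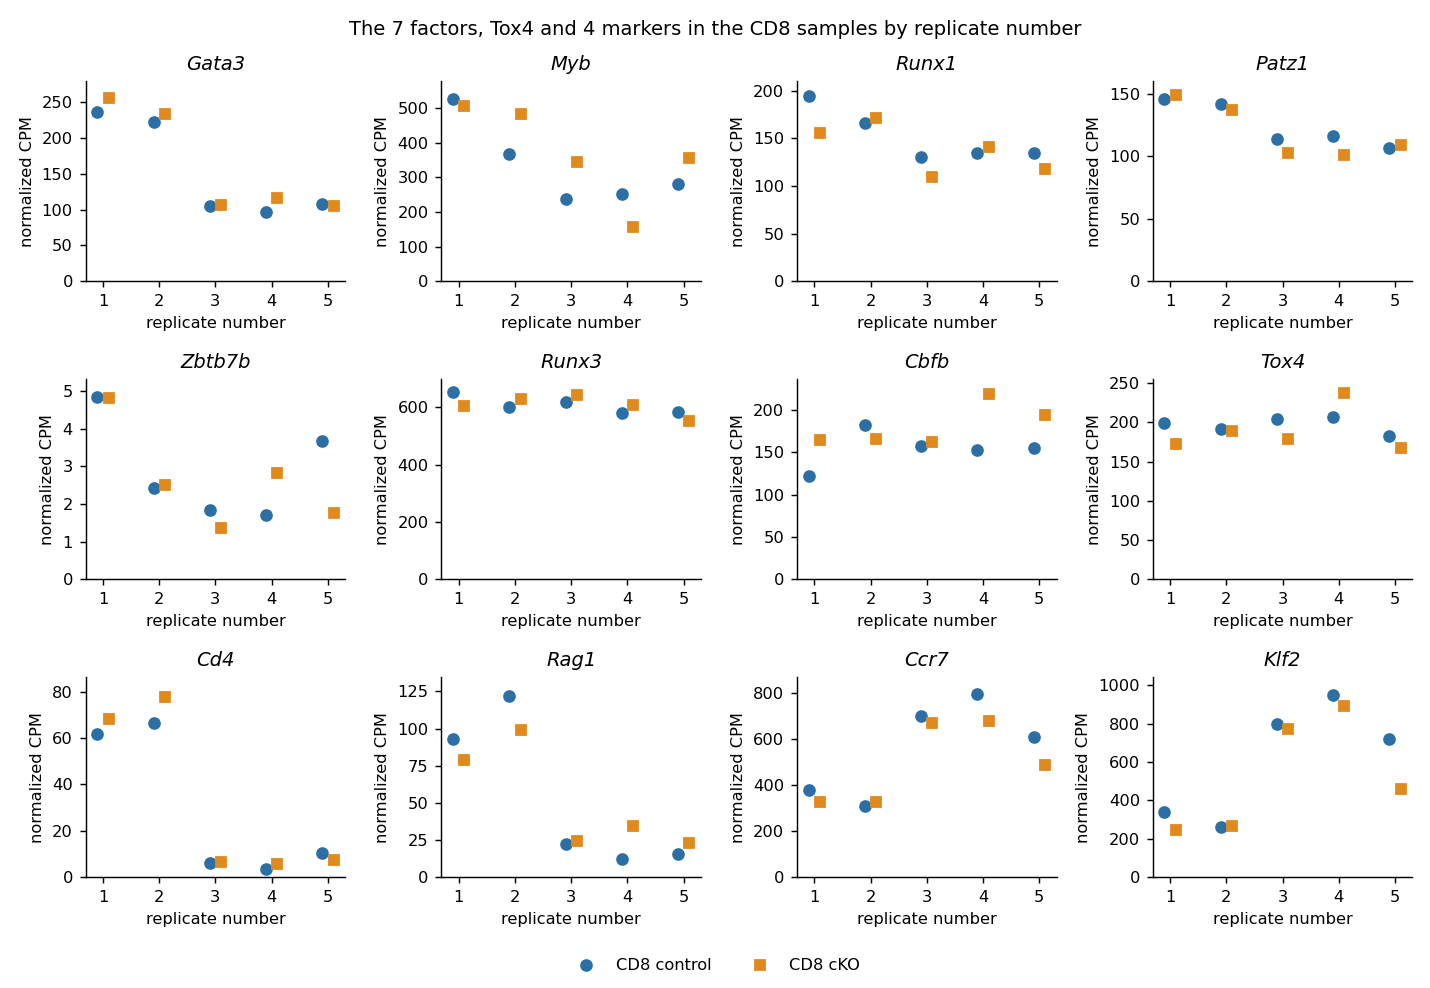
Normalized CPM of the 7 factors, *Tox4* and 4 markers in the 5 control and 5 cKO samples of CD8 cells, set out by replicate number, 1 point per sample. Numbers 1 and 2 are high in *Gata3* (222 to 255 CPM against 96.7 to 117 CPM) and *Cd4* (61.6 to 77.7 CPM against 3.67 to 10.5 CPM) and low in *Klf2* in both genotypes.

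Whether the change with loss of *Tox4* differed between the cell types was tested as an interaction in a fit of all 4 groups. With edgeR the difference was called for none of the 7 factors, and it was largest for *Zbtb7b* and *Cbfb*. With edgeR 0 of the 7 were called, beside 0.107% of the 12131 genes tested (13 genes), and *Cbfb* was the only factor among the 639 genes with an unadjusted p under 0.05. DESeq2 called 36 genes (0.177% of 20395) and 0 of the 7. With the replicate number as a block edgeR called 33 genes (0.272%) and 0 of the 7, but DESeq2, in a fit added after the data were seen, called 108 genes (0.53%) and 1 of the 7, *Cbfb* (log2 difference 0.60, adjusted p = 0.0385). For *Cbfb* the difference of log2 fold changes, CD8 minus DP, was 0.59 ± 0.20 (SE; 95% interval 0.17 to 1.01, edgeR adjusted p = 0.680), from -0.36 in DP and 0.24 in CD8 cells. For *Zbtb7b* it was 0.98 ± 0.49 (SE; 95% interval -0.05 to 2.0, edgeR adjusted p = 0.950). The difference for *Zbtb7b* was thus not established, although its log2 fold changes were -1.08 and -0.11. The count of 13 genes rested on most libraries, being 10 without DP control 3, 11 without CD8 cKO 1 and 0 to 5 without any other library, and 2 genes with 0 of the 7 factors without the library labelled CD8 cKO 4. The signs for *Runx3* (-0.14), *Gata3* (0.09) and *Myb* (-0.13) also turned without single libraries, *Runx3* to 0.01 without DP control 3, *Myb* to 0.09 without CD8 control 1 and to 0.06 without CD8 cKO 4, and *Gata3* to values down to -0.13 without DP control 3, DP cKO 1, CD8 control 3, 4 or 5, or CD8 cKO 1 or 2.

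**Figure D5:**
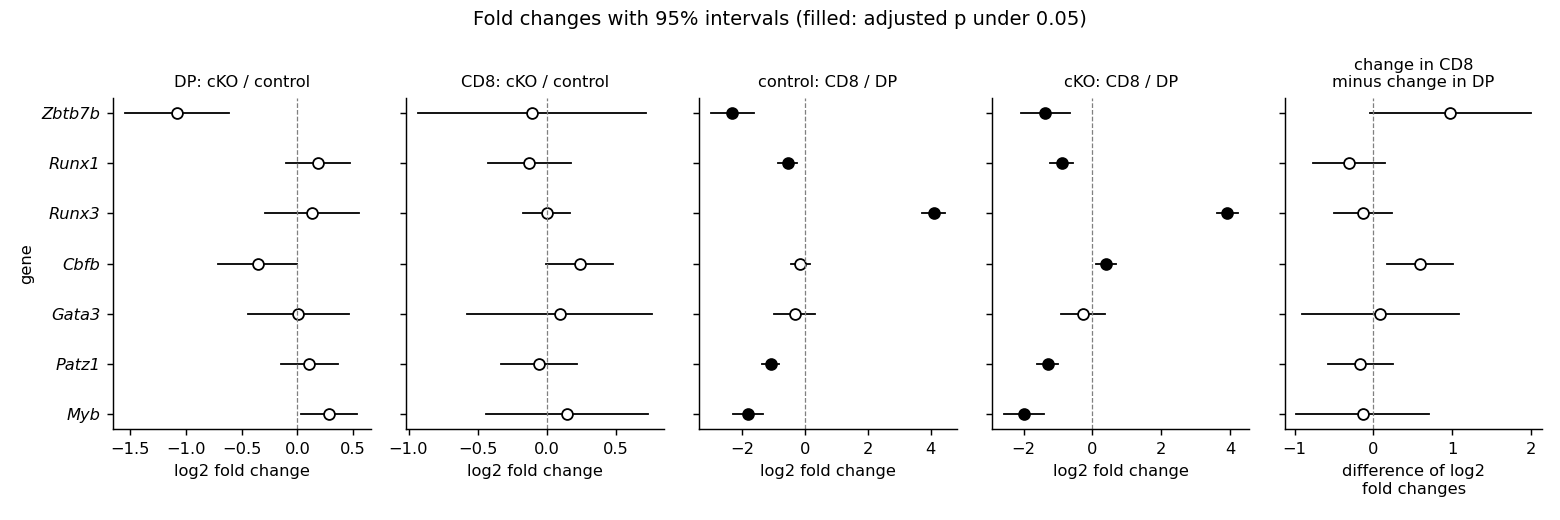
Log2 fold changes of the 7 factors with 95% intervals from edgeR in 4 comparisons and for the difference of the cKO changes, 1 panel each with its own axis, filled points being called at an adjusted p under 0.05. Filled points are seen only between CD8 and DP cells, 5 in control and 6 in cKO mice, and the interval of *Zbtb7b* in DP cells runs from -1.55 to -0.61. The comparisons share samples.

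Around the 7 factors, 5 lists of related genes were read, the corepressors and remaining member of the Runx family, the paralogs of the other factors, the wider lineage choice network, and the genes of the CD4 and CD8 side. In both comparisons of cKO with control and in the interaction edgeR called 0 genes of any of these lists. Over all genes tested it called only 0.145% in DP cells, 0.107% in CD8 cells and 0.107% for the interaction. Of the 6 Runx partners (*Runx2*, *Tle1*, *Tle2*, *Tle3*, *Tle4* and *Aes*, also named *Tle5*), 3 were higher and 2 lower in control CD8 than in control DP cells, where 29.9% of all genes tested were called higher and 30.4% lower. Their median log2 fold change was 0.19, beside -0.01 over all genes tested. *Tle4*, a corepressor that binds Runx proteins, had the largest difference, from 33.5, 39.5 and 42.3 CPM in DP controls to 157, 133, 181, 187 and 164 CPM in CD8 controls (log2 fold change 2.12, edgeR adjusted p = 1.6e-07). *Runx2*, the Runx gene best known from bone, was at 4.23 to 9.69 CPM in DP and 11.6 to 25.1 CPM in CD8 samples. Of the 5 paralogs 4 were tested, with *Zbtb7a* (0.94) and *Gata1* (3.74, from under 0.4 CPM in DP controls) higher and *Mybl2* (-0.99) lower in control CD8 cells, and a median of 0.27. *Gata2* was at or near 0 in all samples. In cKO mice the same comparison gave 3 higher and 2 lower Runx partners (median 0.10) and 2 higher and 1 lower paralog (median 0.19), beside 29.6% higher, 33.5% lower and a median of -0.06 over all genes.

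The lineage choice network of 18 genes held 6 higher and 9 lower genes in control CD8 cells (median log2 fold change -0.26), beside the 29.9% and 30.4% over all genes, and 6 higher and 8 lower ones in cKO mice (median -0.24), beside 29.6% and 33.5%. *Tox*, a relative of *Tox4* that is needed for CD4 cells, was at 177, 165 and 161 CPM in DP controls and at 595, 513.5, 285, 267 and 312 CPM in CD8 controls, again highest in numbers 1 and 2. *Il7r*, whose signal favours the CD8 lineage, was at 11.7 to 22.2 CPM in DP controls and 241 to 372 CPM in CD8 controls (log2 fold change 4.24, edgeR adjusted p = 4.17e-08). *Tcf7* and *Satb1*, both abundant in DP cells, were lower in control CD8 cells (log2 fold changes -0.82 and -0.79), and *Lef1* was higher (1.51). In DP cKO against control samples the medians were 0.03 for this network, -0.26 for the Runx partners and 0.46 for the 3 paralogs tested, beside -0.00 over all genes. Within these lists all 3 DP cKO samples were below all controls for *Il7r*, given above, *Tox* (143, 122 and 139.6 CPM), *Satb1* and *Egr1*. They were above all controls for *Mybl2* (71.2, 63.1 and 85.3 CPM against 40.4, 56.0 and 38.8 CPM). None of these was called by edgeR (adjusted p 0.328, 0.398, 0.346, 0.346 and 0.220). *Gata1*, not tested in this comparison, was also below all controls, at 0.137, 0 and 0.155 CPM against 0.399, 0.314 and 0.172 CPM. These genes were picked from the lists by their values, and the share of all genes that separate the DP genotypes so was not counted. In CD8 cKO against control samples the medians were 0.02 for the network, 0.02 for the Runx partners and 0.36 for the 4 paralogs tested, beside -0.01. All 5 CD8 cKO samples were below all controls for *Tle1* (9.51 to 14.1 CPM against 14.6 to 21.9 CPM, log2 fold change -0.54) and above them for *Ets1* (1984 to 2218 CPM against 1571 to 1974 CPM, 0.24), neither called by edgeR (adjusted p 0.378 and 0.700). Both were picked by their values, and the share of all genes that separate the CD8 genotypes so was not counted.

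The genes on the CD8 side, many of them switched on by Runx3, were mostly higher in CD8 cells. Of 9 genes 7 were higher and 2 lower in control CD8 than in control DP cells (median log2 fold change 2.84), beside 29.9% higher and 30.4% lower over all genes tested. In cKO mice 7 were higher and 1 lower (median 3.54), beside 29.6% and 33.5%. *Itgae*, the integrin chain CD103, was at 9.45, 10.2 and 4.99 CPM in DP controls and at 637, 578, 794.5, 817 and 768 CPM in CD8 controls (log2 fold change 6.48, edgeR adjusted p = 9.36e-09). *Nkg7* and *Prf1* had log2 fold changes of 5.56 and 2.84. *Eomes* and *Gzmb*, which are among the 7, were under 1 CPM in all DP samples and were not tested in DP cKO against control, so the size of their change rests on counts near 0 in DP cells. The 2 lower genes were those of the CD8 coreceptor itself, *Cd8a* (-0.39) and *Cd8b1* (-0.80). In DP cells *Cd8a* was at 2355, 1934.5 and 1963 CPM in controls and at 1770, 1352 and 1466 CPM in cKO samples, with all cKO samples below all controls (log2 fold change -0.45, edgeR adjusted p = 0.328). *Itgae* was at 2.60, 4.17 and 4.18 CPM in DP cKO samples, below all controls as well (log2 fold change -1.18, edgeR adjusted p = 0.260), and so was *Tbx21*, at 0.501, 0.391 and 0.734 CPM against 0.860 CPM or more (-1.01, edgeR adjusted p = 0.526). The other 6 genes of this side overlapped between the genotypes, and the share of all genes that separate them was not counted. Of the CD4 side, *Cd4* was lower in control CD8 cells (log2 fold change -5.86) and *Cd40lg* was not called (0.44). In cKO against control samples the median of the CD8 side was -0.75 over the 7 genes tested in DP and -0.003 over the 9 in CD8, and that of the CD4 side -0.58 and -0.01 over its 2 genes.

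The genes whose profile was most like that of each factor were found by Pearson correlation of log2 CPM over the 16 samples, among 12131 genes. The samples fall into the 2 cell types, and how far these values reflect the contrast between them was not tested. In control mice that contrast was not called for *Cbfb* and *Gata3*. The correlations are given as a description. *Runx3* was followed most closely by *Rgs3* (r = 0.997), *Atn1* (0.997) and *Sh2d3c* (0.996), and *Zbtb7b* by *Mgat5b* (0.958), *Fkbp1a* (0.948) and *Nme3* (0.934). *Runx1* was most like *Ssr2* (0.977), *Tcf7* (0.967) and *Zfp395* (0.966), *Patz1* like *Gse1* (0.991), *Pou6f1* (0.990) and *Ptprf* (0.989), and *Myb* like *Mirt1* (0.988), *Lrmp* (0.979) and *Akap12* (0.978). The highest values were lower for *Cbfb*, with *Ppp1cb* (0.925), *Polr2b* (0.906) and *Actr2* (0.906), and for *Gata3*, with *Dmwd* (0.927), *Rasgrp4* (0.906) and *Il17rb* (0.906).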

How the data were processed

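The authors aligned reads with HISAT2 2.1.0 to mm10 after fastp 0.13.1 and deposited the raw count of fragments per gene from featureCounts 1.6.1. CD8 columns named Ctrl and KO were taken as control and cKO samples of the same number. Both tables were joined by gene symbol, and exonic lengths came from the DP table. Each comparison was fitted with edgeR 4.0.16 (R 4.3.3; TMM, filterByExpr, quasi-likelihood F test, 2-sided, Benjamini-Hochberg adjustment over all genes tested) on the groups compared, the interaction on all 4 groups, with no covariate. The call was an adjusted p under 0.05. Standard errors came from the fold change and F statistic. Exact permutation tests used scipy 1.17.1 and figures matplotlib 3.10.9. The fits were tested on simulated data. Named genes are the 7 factors, *Tox4*, the 5 lists of related genes, the marker lists, the 3 genes most like each factor, *Xist* and *Ddx3y*. Members and lists were chosen with earlier results of these data known. *Trdc* and *Trgv2*, markers of gamma-delta T cells, were not in the tables. Alternatives were RLE and upper-quartile factors, DESeq2 1.42.0, the replicate block, a robust prior, no filter or at least 10 counts in every sample, the study's thresholds (fold change of 1.5, mean TPM of 1), all 4 groups in 1 fit, FPKM, and each library left out. No column of the tables was left unused.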

Additional observations from a re-analysis of the deposited data

How the results depend on the processing

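Alternatives named as added were chosen after seeing the data, namely DESeq2 with the replicate block and CD8 cells without the samples numbered 1 and 2. In DP cKO against control, 1 factor (*Zbtb7b*) was called with DESeq2, the replicate block, no filter and DESeq2 with the block, and the genes called were 180, 152, 74 and 298, and 43 with all 4 groups in 1 fit. Without 1 library 0 factors and 0 to 8 genes were called. *Gata3* turned sign to -0.00 with RLE factors and with DESeq2 and the block, and ran from -0.16 to 0.17 without 1 library, *Runx3* from -0.021 to 0.34. In CD8 cKO against control, 0 factors were called under any alternative, and 66 genes with DESeq2, 44 with the block, 68 with both, 5 without both samples numbered 1 and 5 without numbers 1 and 2, and 4 to 21 without 1 library. *Runx3* turned sign to 0.001 with RLE factors, 0.002 with DESeq2, 0.003 with no filter, 0.035 without both samples numbered 1, 0.022 without numbers 1 and 2, and 0.001 with DESeq2 and the block. Without 1 library *Runx3* ran from -0.022 to 0.034, *Zbtb7b* from -0.44 to 0.15, *Gata3* from -0.12 to 0.30 and *Patz1* from -0.14 to 0.008. For the interaction, genes called were 3 with upper-quartile factors, 36 with DESeq2, 33 with the block, 6 without both samples numbered 1, 5 without numbers 1 and 2, and 108 with DESeq2 and the block, which called 1 factor (*Cbfb*, adjusted p 0.0385, range 0.0385 to 1 over 27 alternatives). Without 1 library 0 factors and 0 to 11 genes were called, with *Runx3* from -0.34 to 0.01, *Gata3* from -0.13 to 0.29 and *Myb* from -0.28 to 0.091. The cause of these differences was not tested. Between CD8 and DP cells every factor kept its direction under all alternatives. In control mice 5 factors were called without any 1 library, beside 51.7% to 61.3% of all genes tested. With the study's thresholds 4 were called (*Runx1* under the fold of 1.5), beside 44.3%. In cKO mice 5 or 6 were called without 1 library, beside 54.6% to 62.6% of all genes tested. The block, DESeq2 with the block and the study's thresholds each called 5 (*Cbfb* lost each time), beside 56%, 33.6% and 48.6%. The fits without CD8 samples 1 and 2 called 6 and 7, beside 62.1% and 59.6% of all genes tested. These samples were left out after *Gata3* was seen to be high in them, so its calls there are not used. The scaling alternatives of edgeR moved the median over all genes by under 0.1. DESeq2 and the fit without a filter test more genes, and their medians in control CD8 against DP were 0.36 and 0.33. FPKM kept the order of the 7 genes in all 4 groups. In CD8 cells deviations of equal numbers correlated in all 5 pairs, although number 4 was most like number 3, and in DP cells the deviations of equal numbers correlated at 0.703, 0.077 and 0.347, and sample 2 was most like number 3, so the block there rests on numbers alone. Across cell types equal numbers correlated at -0.13 to 0.05, so the block between CD8 and DP cells rests on numbers alone as well. Depth limits *Zbtb7b* in CD8 cells most, with as few as 12 counts in a library.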

Other observations

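The 3 markers of thymic epithelium added up to 4.40 CPM in CD8 control 1 and to at most 0.629 CPM in any other sample. The 4 B cell markers added up to 28.2 CPM in CD8 control 1, with *Pax5* the most abundant at 14.4 CPM, and to 2.69 to 11.6 CPM in the other samples. *Hba-a1* and *Hbb-bs* had no counts in any sample and *Alas2*, the other erythroid marker, was at most at 0.285 CPM. The 3 NK markers added up to 23.8 to 41.7 CPM in CD8 samples, mostly *Klrd1*, with *Ncr1* at most at 0.282 CPM. *Sox13*, a marker of gamma-delta T cells, was at 7.15, 4.48, 3.78, 2.07 and 2.39 CPM in CD8 controls and at 15.1, 7.70, 7.75, 8.82 and 8.69 CPM in CD8 cKO samples. All cKO samples were above all controls, and edgeR gave a log2 fold change of 1.29 (adjusted p = 0.203). The share of all genes that separate the CD8 genotypes so was not counted. The regulatory T cell markers added up to 172.5 to 251.4 CPM in DP and 271 to 749.7 CPM in CD8 samples, nearly all *Ikzf2*. *Foxp3*, the defining one, was at 20.5, 11.01, 9.60, 7.72 and 13.3 CPM in CD8 controls and at 8.55, 4.50, 3.99, 3.06 and 7.52 CPM in CD8 cKO samples, with 1 cKO sample above the lowest control (log2 fold change -1.16, edgeR adjusted p = 0.277), while *Ikzf2* had 0.40 (0.947). The 3 markers of double-negative cells added up to 132.6, 117.4, 94.7, 91.4 and 109.2 CPM in CD8 controls 1 to 5. In CD8 cKO samples 1 to 5 they added up to 137.7, 122.8, 134.4, 130.6 and 164.8 CPM, each above the control of the same number. The ranges overlapped, and of these *Kit* had a log2 fold change of 0.57 (edgeR adjusted p = 0.404). The 3 cycling markers added up to 1089.5, 1016 and 622 CPM in DP controls, to 1957, 1013 and 936 CPM in DP cKO samples and to 385 to 805 CPM in CD8 samples. DP cKO 1 was the highest of all.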
